A study of Mus musculus with 18 samples.

Results

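The genes described here are 10 markers of the formative epiblast and of the early germ layers, Fgf5, Otx2, Pou3f1, Utf1, Sall2, Zic2, Eomes, Pim2, Foxd3 and Lef1, measured by polysome profiling in wild-type (WT) and Dgcr8 knockout (KO) mouse embryonic stem cells (ESCs). They were chosen by symbol, as the rows of the count table whose Ensembl identifier maps to each name, which gave 10 of the 51467 genes in the table. The question was what share each message made up of the monosome and polysome libraries, and how these shares differed between cells with and without DGCR8. This protein is needed to process primary microRNA transcripts.

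All cells were ESCs grown in serum with LIF and the 2i inhibitors PD0325901 and CHIR99021, and all received cycloheximide (100 ug/ml, 2 minutes), an inhibitor that freezes ribosomes in place, before lysis and separation on a 10 to 50% sucrose gradient. The WT cells were V6.5 ESCs, and the Dgcr8 KO cells were an established knockout line that lacks canonical microRNAs, so each genotype is represented by a single line. From each of 6 gradients, 3 per genotype, messages with a single ribosome (monosomes), with 2 to 4 ribosomes (low polysomes) and with 4 or more (high polysomes) were sequenced from the 3′ ends of their messages, which made 18 libraries in 6 groups of 3. No source states that the 3 gradients of a genotype came from separate cultures, so the p-values measure only the spread between these samples, which may be technical.

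Mouse ESCs held in LIF and 2i are kept close to the naive pluripotency of the preimplantation epiblast. As cells leave this state they pass through a formative phase, in which Fgf5, Otx2 and Pou3f1 are classically induced, before they respond to the signals that specify the germ layers. Several of the other genes are expressed on both sides of this transition, among them Utf1 and Foxd3, and Eomes and Lef1 belong to the machinery by which Nodal and Wnt signals later pattern the embryo.

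The microRNAs that Dgcr8 KO ESCs lack include the ESC-enriched miR-290 and miR-302 families, which share a single seed, the stretch of bases 2 to 8 that pairs with target messages. Their mature sequences are shown because that seed sets which sites in the 3′ UTRs of the 10 genes were searched. Sites for any other seed of these families were not searched. They are given 5′ to 3′ as RefSeq lists them on GRCm38.p6, with the seed in capitals. The first 3 lie on chromosome 7, between 3218968 and 3220837, and the last 2 on chromosome 3, between 127545275 and 127545687, all on the plus strand.
mmu-miR-291a-3p: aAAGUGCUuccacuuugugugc
mmu-miR-294-3p: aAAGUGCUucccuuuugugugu
mmu-miR-295-3p: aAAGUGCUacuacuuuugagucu
mmu-miR-302b-3p: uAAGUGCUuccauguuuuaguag
mmu-miR-302d-3p: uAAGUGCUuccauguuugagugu

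Matches to this seed were searched in the 3′ UTR of 1 principal transcript per gene, on the sense strand only, as AGCACTTA (8mer), AGCACTT (7mer-m8), GCACTTA (7mer-A1) and GCACTT (6mer), where the longer matches contain the shorter ones and a match was counted once, under its longest class. In the sequence searched, Lef1 was the 1 gene of the 10 with a match of any class, a 7mer-m8 near base 1010 of its 1287-base 3′ UTR. The surrounding sequence, on the plus strand of GRCm38 at chr3:131224067-131224094 in the last exon, is shown with the match in capitals.
Lef1 site: gtaaaaagcccAGCACTTgaattgttct
Among 11682 tested genes with an annotated 3′ UTR, 19.3% held at least 1 such 7mer or 8mer and 31.3% held a match of any class. The annotation gives the principal transcript of Pim2 no 3′ UTR, so nothing could be searched there. RefSeq ends lie past the counted exons by 898 bases for Otx2 and 476 for Zic2. Sequence past the searched annotation was not read in these genes. A match of letters is a description and not evidence of binding.

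Library totals ranged from 1151649 to 4984833 counts and were lowest in the monosome libraries. Levels are given as CPM, counts relative to the scaled library size (TMM). Each fraction was sequenced as its own library and scaled to its own size. A level is therefore a share of that fraction's library and not an amount of RNA per cell. Ratios between fractions are likewise relative to the other genes. A count of 0 allows up to 3 counts, which correspond to 0.689 to 2.65 CPM per library, and since the reads carry no molecular identifiers such limits cover counting error only. Genes with at least 3 CPM in 3 or more libraries were tested, 12851 in all. The low polysome library of KO gradient 1 stood apart, with 65 of the genes tested at 3 CPM or more and at least 3-fold above both other libraries of its group, against 2 to 48 in the other 17 libraries. Among the 65 were the embryonic globin genes Hbb-y (425 CPM, against at most 43 CPM in the other 17 libraries) and Hba-x (59.6 against at most 7.37 CPM). List genes among them were Lin28a (14.8 CPM, with 1.28 and 1.58 CPM in the other KO low polysome libraries) and Sox4 (25.5, with 5.13 and 3.94 CPM). Hes5 (8.91, with 0 and 0.263 CPM) and Col1a1 (4.92, with 0.32 and 0.263 CPM) were further ones. So were Krt8 (7.38, with 1.92 and 0.788 CPM) and Krt18 (9.53, with 2.24 and 3.15 CPM). None of the 8 tested markers was among the 65. The part of this library in the results was not tested. The low polysome changes of the markers called there, and of Sox3, Sox11 and Lin28a, are therefore also given without this gradient. For the other list genes no such value is given. In bulk fractions, fewer cells that express a gene and less of its RNA per cell cannot be told apart.

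Dgcr8 itself was read first as a check of the labels. Its levels in monosomes were 76.3, 68.4 and 79.6 CPM in WT and 47.3, 52.0 and 51.3 CPM in KO libraries. In low polysomes they were 51.8, 70.0 and 66.5 CPM in WT and 39.0, 58.6 and 42 CPM in KO, and in high polysomes 26.1, 27.4 and 29.6 CPM in WT against 14.5, 23 and 8.73 CPM in KO. The log2 changes were -0.56 (SE 0.19, adjusted p = 0.0185), -0.45 (SE 0.17, adjusted p = 0.0223) and -1.01 (SE 0.23, adjusted p = 0.000276). The KO libraries were thus lower on average but kept 38 to 183 Dgcr8 reads each, and the low polysome groups overlapped. Reads from 3′ ends check a knockout only where the change reaches the 3′ end of the message.

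Of the 10 genes, 8 were tested, and Fgf5 and Pim2 were not. Calls required both a log2 change beyond 1 in either direction and an adjusted p below 0.05, from limma-voom with Benjamini-Hochberg adjustment over the 12851 genes, which is the source of every adjusted p below. In monosomes, 1 of the 8 (Lef1) was called higher and 1 (Pou3f1) lower in KO cells, where 18.1% of all genes tested were called (8.43% higher and 9.63% lower). In low polysomes, 3 rose (Foxd3, Lef1 and Zic2) and Pou3f1 fell, with 25% of all genes called (11.4% higher, 13.6% lower). In high polysomes, Foxd3 and Lef1 rose and Pou3f1 fell, with 33.1% of all genes called (15.1% higher, 17.9% lower). Pou3f1 and Lef1 were therefore called in every fraction and in opposite directions. Without KO gradient 1 the low polysome changes of the 4 genes called there were -2.19 for Pou3f1, 1.67 for Lef1, 1.58 for Foxd3 and 1.27 for Zic2, all still called. The median log2 changes of the 8 genes were 0.41, 0.42 and 0.34 in the 3 fractions, beside -0.05, 0.00 and -0.08 over all genes tested. All 8 passed the filter on low values on the WT libraries alone, Lef1 with 3 of 9 libraries at 3 CPM or more, and 7 did so on the KO libraries alone. Pou3f1 did not, with 2 of 9 KO libraries at that level, so it was tested through the genotype in which it was high.

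**Figure D1:**
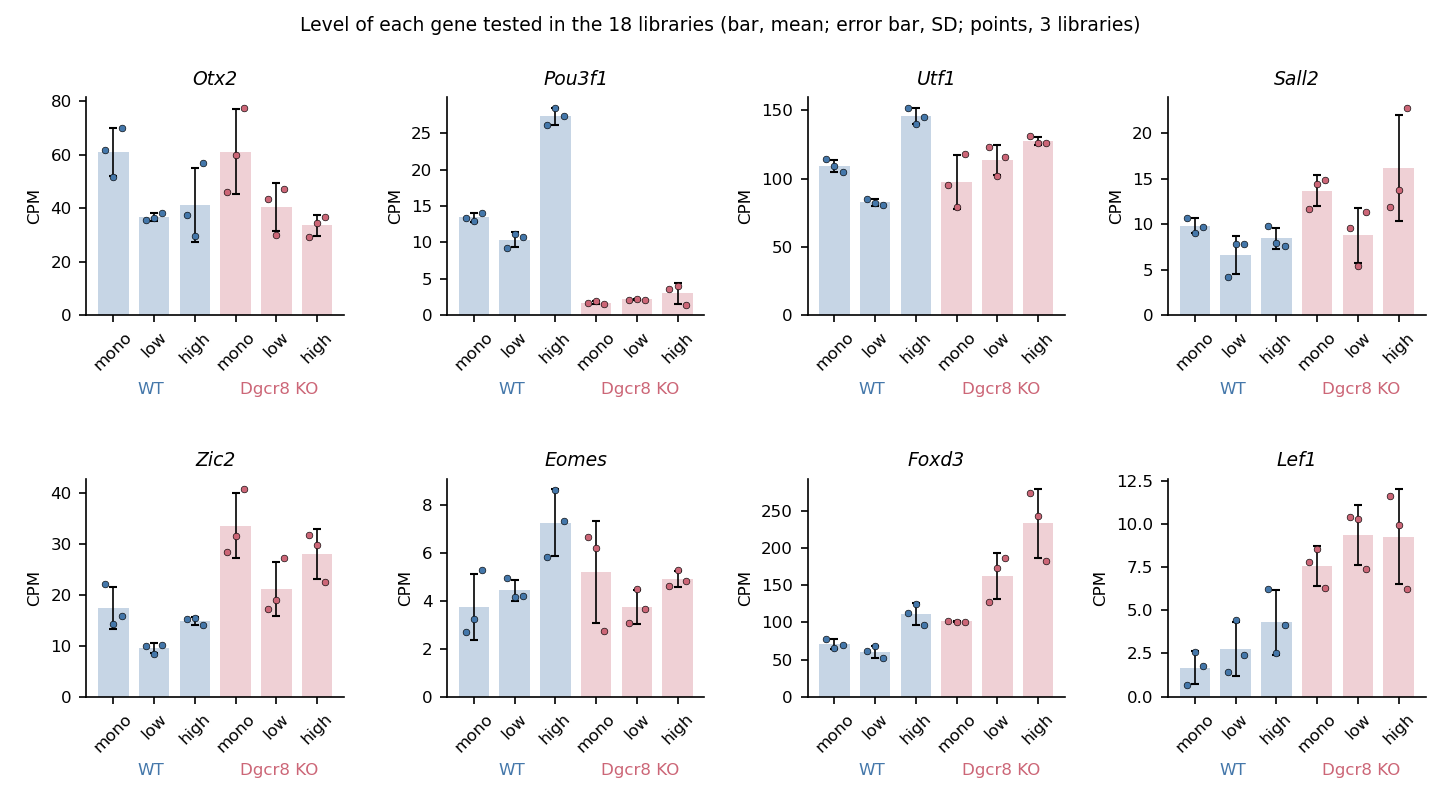
Level in CPM (linear axes that start at 0) of the 8 genes tested, by genotype and fraction, with bars for the mean, error bars for the SD and points for the 3 libraries of each group. Pou3f1 fell from means of 10.4 to 27.3 CPM in WT fractions to 1.73 to 3.02 CPM in KO fractions, whereas Foxd3 reached its highest mean, 234 CPM, in KO high polysomes.

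Pou3f1 (ENSMUSG00000090125, GRCm38 chromosome 4, 124656807 to 124660655, plus strand) encodes the POU-domain factor OCT6, which marks the formative epiblast and later acts in the nervous system. Its monosome libraries held 13.4, 12.9 and 14.1 CPM in WT and 1.67, 1.94 and 1.57 CPM in KO cells. Its low polysome libraries held 9.17, 11.2 and 10.8 CPM in WT and 2.15, 2.24 and 2.10 CPM in KO cells. Its high polysome libraries held 26.1, 28.5 and 27.4 CPM in WT and 3.64, 4.04 and 1.38 CPM in KO cells. Every WT library was above every KO library, and the KO values rest on 3 to 13 reads each. Pou3f1 fell 7.09-fold in monosomes (log2 -2.83, SE 0.47, adjusted p = 6.2e-06), 4.58-fold in low polysomes (log2 -2.20, SE 0.37, adjusted p = 3.93e-06) and 10.2-fold in high polysomes (log2 -3.36, SE 0.32, adjusted p = 9.15e-12). These 3 calls held under every alternative setting, and the changes lay at the 0.996th, 3.06th and 0.716th percentiles of all genes tested.

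Lef1 (ENSMUSG00000027985, chromosome 3, 131110471 to 131224356, plus strand) encodes a DNA-binding partner of β-catenin, through which Wnt signals reach their target genes. The 3 WT monosome libraries held 1, 4 and 2 Lef1 reads (0.67, 2.58 and 1.77 CPM) and the KO monosome libraries 14, 22 and 16 reads (7.78, 8.54 and 6.27 CPM). Levels in low polysomes were 1.41, 4.46 and 2.41 CPM in WT and 10.4, 10.3 and 7.36 CPM in KO, and in high polysomes 6.24, 2.52 and 4.14 CPM in WT and 11.6, 9.94 and 6.21 CPM in KO. The genotypes did not overlap in monosomes or low polysomes, and in high polysomes they met, with the highest WT library just above the lowest KO library. Lef1 rose 4.14-fold in monosomes (log2 2.05, SE 0.62, adjusted p = 0.00819), 3.37-fold in low polysomes (log2 1.75, SE 0.41, adjusted p = 0.000371) and 2.09-fold in high polysomes (log2 1.07, SE 0.36, adjusted p = 0.0111). The monosome call was lost without WT gradient 1 (log2 1.56, adjusted p = 0.0718), which held a single Lef1 read there. The high polysome call was lost without WT gradient 2 (log2 0.78, adjusted p = 0.0775), without KO gradient 1 (log2 0.89, adjusted p = 0.0442) and when libraries were scaled to their totals (log2 0.83, adjusted p = 0.0476), while the low polysome call held throughout.

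Foxd3 (ENSMUSG00000067261, chromosome 4, 99656299 to 99658622, plus strand) encodes a forkhead factor that is needed for epiblast maintenance and later for neural crest. Its monosome libraries held 77.7, 65.2 and 69.0 CPM in WT and 102, 101 and 101 CPM in KO cells. The low polysome libraries held 61.0, 68.6 and 51.8 CPM in WT and 128, 173 and 187 CPM in KO cells, and the high polysome libraries 113, 125 and 96.5 CPM in WT and 274, 244 and 183 CPM in KO cells. In all 3 fractions the lowest KO library was above the highest WT library. Foxd3 rose 2.67-fold in low polysomes (log2 1.42, SE 0.15, adjusted p = 2.15e-10) and 2.07-fold in high polysomes (log2 1.05, SE 0.14, adjusted p = 4.07e-08), and in monosomes it was 1.43-fold higher (log2 0.52, SE 0.18, adjusted p = 0.0177), under the fold threshold. The high polysome change sat at that threshold, with values of 0.93 without WT gradient 3, 0.93 without KO gradient 1, 1.0 with a filter of 10 CPM and 0.82 with total counts, each below the call, all with adjusted p-values of 8.14e-06 or less.

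Zic2 (ENSMUSG00000061524, chromosome 14, 122475435 to 122479852, plus strand) encodes a zinc finger factor that binds enhancers in ESCs and acts in forebrain development. Monosome levels were 22.1, 14.2 and 15.9 CPM in WT and 28.4, 31.5 and 40.7 CPM in KO cells. Low polysome levels were 9.87, 8.37 and 10.2 CPM in WT and 17.2, 18.9 and 27.1 CPM in KO, and high polysome levels 15.2, 15.5 and 14 CPM in WT and 31.7, 29.8 and 22.5 CPM in KO. All KO libraries exceeded all WT libraries of the same fraction. Zic2 rose 2.2-fold in low polysomes (log2 1.14, SE 0.24, adjusted p = 0.000101), and was 1.93-fold higher in monosomes (log2 0.95, SE 0.25, adjusted p = 0.00306) and 1.83-fold higher in high polysomes (log2 0.87, SE 0.21, adjusted p = 0.000468), both under the fold threshold. Without KO gradient 3 the low polysome value was 0.93 and no longer called, while the high polysome value became 1.04 and was called. The monosome value passed the threshold without WT gradient 1 (1.13), KO gradient 1 (1.04) or KO gradient 2 (1.07), with total counts (1.05) and with no filter (1.01), so in all 3 fractions Zic2 lay close to the threshold.

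Sall2 (ENSMUSG00000049532, chromosome 14, 52311172 to 52328762, minus strand) encodes a spalt-family zinc finger factor. Its levels were low in both genotypes, at 10.7, 9.03 and 9.73 CPM in WT and 11.7, 14.4 and 14.9 CPM in KO monosomes. Low polysomes held 4.23, 7.81 and 7.83 CPM in WT and 9.53, 5.45 and 11.3 CPM in KO, and high polysomes 9.75, 7.93 and 7.64 CPM in WT and 11.9, 13.7 and 22.8 CPM in KO. The groups overlapped in low polysomes and were separate in the other fractions, where 1 KO high polysome library, of gradient 3, stood well above the rest. No change was called. The largest was in high polysomes (log2 0.93, SE 0.28, 95% interval 0.37 to 1.49, adjusted p = 0.00391), and it passed the fold threshold without WT gradient 1 (1.01), KO gradient 1 (1.11) or KO gradient 2 (1.07). Without KO gradient 3 it was 0.61, with an adjusted p of 0.0736.

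Otx2 (ENSMUSG00000021848, chromosome 14, 48657679 to 48667513, minus strand) encodes a homeodomain factor that drives cells out of naive pluripotency and later patterns the anterior brain. Monosome levels were 61.6, 51.6 and 69.8 CPM in WT and 46.1, 59.8 and 77.6 CPM in KO cells. Low polysomes held 35.6, 36.3 and 38.2 CPM in WT and 43.6, 30.1 and 47.3 CPM in KO, and high polysomes 37.4, 29.6 and 56.7 CPM in WT and 29.4, 34.5 and 36.8 CPM in KO. The genotypes overlapped in every fraction. The log2 changes of 0.02 (95% interval -0.39 to 0.43), 0.12 (-0.27 to 0.50) and -0.25 (-0.65 to 0.14) had adjusted p-values of 0.957, 0.628 and 0.266, and the intervals leave out changes of 2-fold in either direction.

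Utf1 (ENSMUSG00000047751, chromosome 7, 139943789 to 139945112, plus strand) encodes a chromatin-associated factor of pluripotent cells. Monosome levels were 114, 109 and 105 CPM in WT and 95.1, 79.2 and 118 CPM in KO cells. Low polysomes held 85.3, 82.0 and 80.4 CPM in WT and 123, 102 and 116 CPM in KO, and high polysomes 152, 140 and 145 CPM in WT and 131, 126 and 126 CPM in KO. In low polysomes all KO libraries were above all WT libraries, in high polysomes all were below, and in monosomes the groups overlapped. The low polysome difference was 1.37-fold (log2 0.46, SE 0.13, adjusted p = 0.00234), under the fold threshold. In monosomes and high polysomes the log2 changes were both -0.19, with 95% intervals of -0.47 to 0.09 and -0.44 to 0.06 and adjusted p-values of 0.299 and 0.18.

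Eomes (ENSMUSG00000032446, chromosome 9, 118478212 to 118486132, plus strand) encodes a T-box factor of mesendoderm and trophoblast, and was among the genes with the fewest reads. WT libraries held 2.68, 3.23 and 5.30 CPM in monosomes, 4.94, 4.18 and 4.21 CPM in low polysomes and 5.85, 8.65 and 7.32 CPM in high polysomes. KO libraries held 6.67, 6.21 and 2.74 CPM in monosomes, 3.07, 4.49 and 3.68 CPM in low polysomes and 4.63, 5.28 and 4.83 CPM in high polysomes. The groups were separate in high polysomes, with KO below WT, and overlapped in the other fractions. No change was called, with log2 values of 0.36 (SE 0.48), -0.25 (SE 0.37) and -0.55 (SE 0.31) and adjusted p-values of 0.593, 0.598 and 0.125. At 4 to 24 reads per library these intervals are wide, and a change of 2-fold in monosomes or high polysomes was not outside them.

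Fgf5 (ENSMUSG00000029337, chromosome 5, 98254184 to 98277030, plus strand), a secreted growth factor and the most widely used marker of the formative and primed epiblast, gave 2 reads in all 18 libraries, 1 in a WT monosome and 1 in a WT high polysome library. The 9 KO libraries held none, which allows at most 0.689 to 1.67 CPM per library. Pim2 (ENSMUSG00000031155, chromosome X, 7878319 to 7882517, plus strand), a serine/threonine kinase, gave 8 reads, 4 in WT and 4 in KO libraries, with at most 3 in any library. The exons counted for Pim2 stop 915 bases before the transcript end given by RefSeq, so reads from that end were not counted and its level is uncertain. RefSeq ends also lie past the counted exons by 898 bases for Otx2, 476 for Zic2, 49 for Foxd3, 3 for Fgf5 and 1 for Lef1. They fall on the same base for Pou3f1, Utf1 and Eomes, and the counted exons of Sall2 reach 5 bases further than RefSeq. The defining formative marker was thus at or near 0 in both genotypes, while most of the other genes were readily detected in these naive-culture cells, so the name of the group describes its use as a marker set and not a state of these cells.

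**Figure D2:**
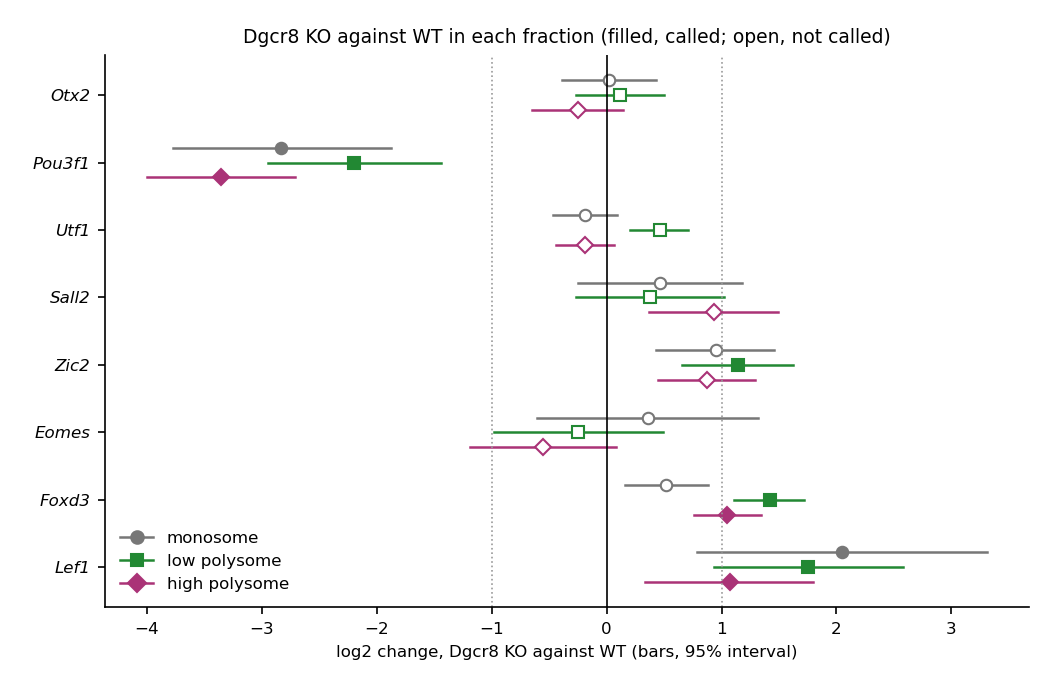
Log2 change of Dgcr8 KO against WT for the 8 genes tested, by fraction, with 95% intervals and filled symbols for called changes. The solid line marks no change and the dotted lines a log2 change of 1, and the estimates for Pou3f1 lie to the left of -1 and those for Lef1 to the right of 1 in all fractions.

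Counted without a fitted model, KO and WT libraries did not overlap for 5 of the 8 genes in the monosome and low polysome fractions and for 6 in the high polysome fraction, beside 49.2, 57 and 63.6% of all genes tested. Scaling libraries to their totals moved the median change of all genes by 0.10 (monosomes), -0.03 (low polysomes) and -0.22 (high polysomes), and in the last of these it left Pou3f1 as the 1 gene called.

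The distribution over fractions was compared next, first within each genotype and then between them. In the study the ratio of high polysome to monosome reads serves as the translation level of a gene. In WT cells limma-voom called none of the 8 genes between high polysomes and monosomes, where 30.1% of all genes tested were called, edgeR called 2 and DESeq2 1. The unadjusted p was under 0.05 for 5 of the 8. For 4 of them the adjusted p was under 0.05, with Pou3f1 at a log2 ratio of 1.0 (SE 0.25, adjusted p = 0.000894), Foxd3 at 0.65 (SE 0.17, adjusted p = 0.00165), Utf1 at 0.41 (SE 0.13, adjusted p = 0.01) and Otx2 at -0.58 (SE 0.21, adjusted p = 0.0166). Pou3f1 sat on the fold threshold, and passed it with edgeR and DESeq2 (both 1.02), with total counts (1.08) and without WT gradient 1 (1.02), WT gradient 3 (1.02) or KO gradient 2 (1.06). Eomes was at 0.95 (SE 0.44, adjusted p = 0.0682) and not called, and it passed in edgeR (1.0, adjusted p = 0.0448), with total counts (1.02) and with no filter (1.04). Lef1 had the highest WT ratio but also the widest error, at 1.17 (SE 0.64, adjusted p = 0.123).

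In KO cells Foxd3 was higher in high polysomes than in monosomes (log2 1.18, SE 0.15, adjusted p = 4.09e-09), the 1 call among the 8 where 43% of all genes tested were called (17.5% higher). It was 0.93 and not called with total counts. Utf1 again lay at 0.41 (SE 0.13, adjusted p = 0.00498) and Otx2 at -0.85 (SE 0.19, adjusted p = 0.000154), the latter called with total counts (-1.10). The other 5 genes ranged from -0.30 for Zic2 to 0.47 for Pou3f1, with adjusted p-values from 0.147 to 0.938. High polysome and monosome libraries did not overlap for 4 of the 8 genes in WT and 3 in KO cells, beside 60.8 and 68.6% of all genes.

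Between genotypes, the high polysome to monosome ratio changed past the threshold for none of the 8 genes, where 15.1% of all genes tested were called, and no adjusted p was under 0.05. Unadjusted, 1 of the 8 (Foxd3) had p under 0.05, and edgeR and DESeq2 called none as well. Foxd3 came closest, with per-gradient log2 ratios of 0.54, 0.94 and 0.48 in WT and 1.42, 1.26 and 0.86 in KO cells, which overlap, and a change of 0.53 (SE 0.23, adjusted p = 0.0781). Pou3f1 had ratios of 0.93, 1.10 and 0.92 in WT and 0.87, 0.84 and -0.12 in KO cells, a change of -0.53 (SE 0.57, adjusted p = 0.529) that rests on 3 to 13 KO reads per library and was -0.03 without KO gradient 3. For this gene the KO levels were low in every fraction, and a change of the ratio of 2-fold was not outside the 95% interval of -1.68 to 0.62.

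Lef1 had WT ratios of 2.33, -0.03 and 0.97 and KO ratios of 0.53, 0.20 and -0.01, and its change of -0.98 (SE 0.72, adjusted p = 0.333) was within the spread of the WT gradients. It was -1.69 without WT gradient 2 and -0.23 without WT gradient 1. Eomes had ratios of 0.95, 1.25 and 0.42 in WT and -0.47, -0.21 and 0.68 in KO cells, with a change of -0.91 (SE 0.57, adjusted p = 0.247). Its groups overlapped through KO gradient 3. Utf1 differed least, with ratios of 0.42, 0.36 and 0.46 in WT and 0.46, 0.66 and 0.10 in KO cells and a change of 0.00 (95% interval -0.37 to 0.38), which leaves out a change of 2-fold. Otx2 (-0.27, SE 0.28), Sall2 (0.47, SE 0.45) and Zic2 (-0.08, SE 0.33) had adjusted p-values of 0.479 to 0.895. The groups did not overlap for 2 of the 8 genes, Pou3f1 and Sall2, beside 41.7% of all genes.

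For the low polysome to monosome ratio none of the 8 genes was called by limma-voom (5.03% of all genes tested), edgeR or DESeq2, but Foxd3 and Utf1, the 2 with an unadjusted p under 0.05, also had adjusted p-values under 0.05. Foxd3 ratios were -0.35, 0.07 and -0.41 in WT and 0.32, 0.77 and 0.89 in KO gradients, a change of 0.90 (SE 0.23, adjusted p = 0.00693). Without KO gradient 1 the change was 1.07 and was called, and without WT gradient 1, WT gradient 3 or KO gradient 2 it was 0.83, 0.80 and 0.76, with adjusted p-values of 0.0585, 0.0514 and 0.0513. Utf1 ratios were -0.41, -0.41 and -0.39 in WT and 0.37, 0.36 and -0.01 in KO gradients, a change of 0.65 (SE 0.19, adjusted p = 0.0175). With a gradient left out the Utf1 change ran from 0.49 to 0.79, and its adjusted p stayed under 0.05 only without KO gradient 3 (0.0112), with values from 0.0593 to 0.136 without any other gradient. In both genes every KO gradient was above every WT gradient, as it was for Pou3f1 (-0.51, -0.20 and -0.36 in WT, 0.27, 0.15 and 0.30 in KO), whose change of 0.63 had an SE of 0.60 and an adjusted p of 0.586. Such separation was seen for 3 of the 8 genes and for 30.4% of all genes.

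The high to low polysome ratio changed past the threshold for none of the 8 either, by limma-voom (5.18% of all genes tested), edgeR or DESeq2, and 2 had an unadjusted p under 0.05. Utf1 had ratios of 0.83, 0.77 and 0.84 in WT and 0.09, 0.30 and 0.12 in KO gradients, and the change of -0.65 (SE 0.18, adjusted p = 0.00785) was the 1 with an adjusted p under 0.05, which became 0.0563 without WT gradient 2 (-0.62). Pou3f1 had ratios of 1.44, 1.30 and 1.28 in WT and 0.60, 0.68 and -0.43 in KO gradients, a change of -1.16 (SE 0.49, adjusted p = 0.0993) that was called with total counts (-1.37, adjusted p = 0.0427). These were the 2 of 8 genes whose gradients did not overlap, beside 34.4% of all genes. The 3 ratio changes are made from the same libraries as the comparisons by fraction and are not independent of them or of each other. Total counts moved the median change of all genes by -0.33 for the high polysome to monosome ratio, -0.13 for the low polysome to monosome ratio and -0.20 for the high to low polysome ratio.

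**Figure D3:**
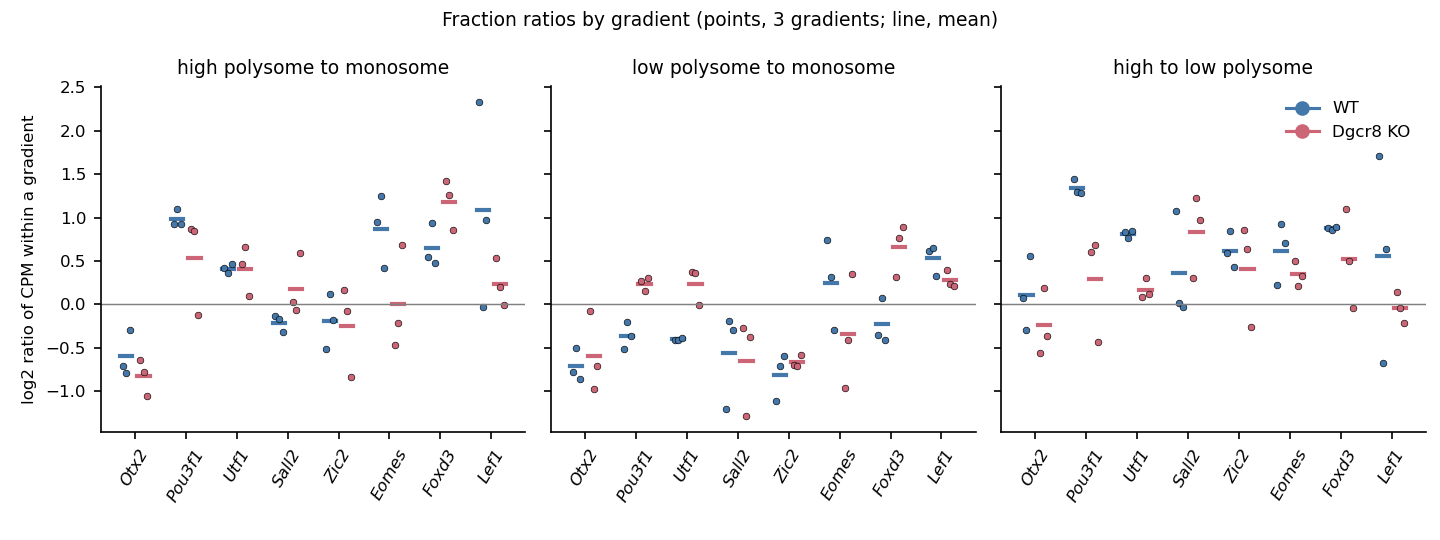
Log2 ratios of CPM between fractions of the same gradient for the 8 genes tested, with points for the 3 gradients of a genotype and a line for their mean. Utf1 gradients lie at -0.41 to -0.39 in WT and -0.01 to 0.37 in KO cells for the low polysome to monosome ratio, and the genotypes overlap for its high polysome to monosome ratio.

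Across all genes, the change of the high polysome to monosome ratio moved with the length of the coding sequence, from a median of -0.94 in the decile of the genes tested with the shortest coding sequences to 0.62 in the longest decile, so each gene was also set beside genes of similar coding length. Sall2 (coding sequence of 3015 bases), Otx2 (870), Utf1 (1020) and Zic2 (1590) lay within 0.18 of the median of their decile, and Foxd3 (1410) lay 0.42 above it. Pou3f1 (1350) was 0.49 below its decile's median, Lef1 (1194) 0.95 below and Eomes (2124) 1.24 below, at the 4.34th percentile of 1176 genes. The SE of the Eomes change was 0.57. This comparison is a description, since genes are not replicates.

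**Figure D4:**
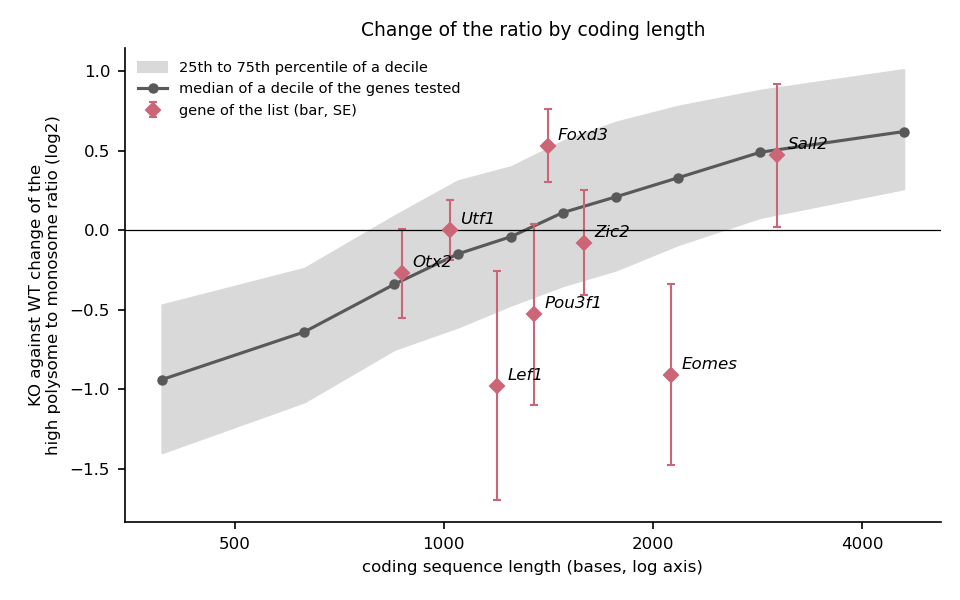
Change between genotypes of the high polysome to monosome ratio (log2) against coding sequence length (bases, log axis), with the median and the 25th to 75th percentiles of each decile of the genes tested in grey and the 8 genes in red with their SE. Eomes and Lef1 lie below the grey band, at -0.91 and -0.98. Pou3f1 lies just below it at -0.53 and Foxd3 at its upper edge at 0.53, and the remaining 4 lie within it.

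Profiles over all 18 libraries were used to find the tested genes most like each marker, by the root mean square difference of log2 CPM after centring each gene, among 9022 genes with a mean of at least 10 CPM. Foxd3 was nearest to Slc35f2, at a difference of 0.188, and Abhd2, at 0.237. Utf1 was nearest to Prpsap1 (0.165) and C1qbp (0.171), Otx2 to Zbtb43 (0.242) and 2700097O09Rik (0.243), and Eomes to Chuk (0.255) and Nadk2 (0.263). Zic2 was nearest to Axin2 (0.281), a target of Wnt signalling, and Zfp553 (0.281), and Sall2 to Dhx30 (0.283) and Ehmt2 (0.295). Pou3f1 was nearest to Mthfd2 (0.345), a mitochondrial enzyme of folate metabolism, and Slc41a3 (0.379), and Lef1 to Psme2 (0.389) and Tfcp2 (0.408). The median difference over all compared genes ran from 0.589 for Utf1 to 1.44 for Pou3f1. Likeness of this kind is a description over libraries that share their 6 groups.

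Other genes of the same developmental stages were read from 4 further lists. The share of all genes tested that was called is the one given above, 8.43 to 15.1% higher and 9.63 to 17.9% lower by fraction. Of 16 other formative and primed epiblast genes 14 were tested, and in high polysomes 3 rose and 2 fell in KO cells, with a median log2 change of 0.34 beside -0.08 over all genes. Cdh2, the N-cadherin of primed and mesodermal cells, rose (log2 2.28, adjusted p = 2.58e-06), as did Nodal, the ligand that maintains the epiblast, from a mean of 236 to 728 CPM (log2 1.62, adjusted p = 6.57e-14). Cldn6, a tight junction protein, fell (log2 -1.96, adjusted p = 2.78e-05), and so did Tead2, a partner of YAP (log2 -1.65, adjusted p = 1.18e-13). In monosomes 2 rose (Cdh2 and Zic5) and Tead2 fell, and in low polysomes 5 rose (Cdh2, Sox3, Sox11, Nodal and Zic5) and 2 fell (Tead2 and Cldn6). Without KO gradient 1 the low polysome change of Sox3 was 0.81 (adjusted p = 0.181) and no longer called, while that of Sox11 remained called at 1.12 (adjusted p = 2.26e-05). The Zic5 calls were lost without other gradients, at 0.86 in monosomes without WT gradient 2 and 0.87 in low polysomes without KO gradient 3. The Tead2 monosome change fell under the fold threshold without WT gradient 2 (-0.92) or KO gradient 2 (-0.96). Fgf8 and Wnt8a, with 21 and 6 reads over all libraries, were not tested.

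Among 13 mesoderm and endoderm genes 4 were tested, and Evx1, Kdr and Wnt3 passed the filter on low values only through the KO libraries, with at most 1 of 9 WT libraries at 3 CPM or more, so their count and direction are no support for a change of the list. Evx1, a homeobox gene of the primitive streak, rose in all 3 fractions, by log2 values of 2.54, 3.97 and 3.22 (adjusted p = 0.00162, 2.56e-05 and 0.000202) from WT means of 0.671 to 2.25 CPM. Kdr, the VEGF receptor, rose in low polysomes (1.83, adjusted p = 0.00366) and high polysomes (1.51, adjusted p = 0.00713), the latter lost without WT gradient 1 (1.14, adjusted p = 0.058). The defining genes of these layers stayed near 0, with 22 reads of T, 19 of Foxa2, 11 of Mesp1 and none of Cer1 over the 18 libraries. In monosomes the mean level of Evx1 was 2.25 CPM in WT and 13 CPM in KO cells, whereas T was at 1.61 and 0 CPM, Sox17 at 1.16 and 0.131 CPM and Gsc at 3 and 2.58 CPM.

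Of 10 neuroectoderm genes 5 were tested, of which 3 were called lower in monosomes and 2 in each polysome fraction, beside 9.63, 13.6 and 17.9% of all genes tested. Sox1, an early neural factor, fell in all 3 (log2 -1.39, -1.49 and -2.21, adjusted p = 5.01e-06, 3.76e-07 and 9.17e-12). Tubb3 (-1.94, adjusted p = 1.15e-05) and Nes (-1.18, adjusted p = 0.00971) fell in monosomes. Tubb3 was also lower in low (-0.98, adjusted p = 0.00191) and high polysomes (-0.99, adjusted p = 4.94e-05). Both values were just under the fold threshold and were called without some single gradients. Nes was at -0.80 and -0.26 in these fractions and not called. Hes5 was called lower in low (-1.83, adjusted p = 0.042) and high polysomes (-2.93, adjusted p = 0.00524). Both calls were lost without KO gradient 3 (-1.23, adjusted p = 0.245, and -1.87, adjusted p = 0.101). The low polysome call was also lost without WT gradient 2 (adjusted p = 0.0728) or KO gradient 2 (-0.80, adjusted p = 0.38). Hes5 low polysome libraries held 2.47, 2.79 and 3.01 CPM in WT and 8.91, 0 and 0.263 CPM in KO cells. The KO mean there (3.06 CPM) was thus above the WT mean (2.76 CPM). Hes5 passed the filter on low values on neither genotype alone. The Nes call was lost without WT gradient 1 (-0.91, adjusted p = 0.0927). The remaining gene tested, Otx1, a relative of Otx2, was higher in KO cells, with log2 values of 0.73 (adjusted p = 0.0412), 0.53 (adjusted p = 0.0858) and 0.22 (adjusted p = 0.535), and was not called. Pax6, with 63 reads, was not tested.

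Of 21 paralogues 16 were tested, and in high polysomes 5 rose and 5 fell. Foxd1, a relative of Foxd3, rose most, from a mean of 1.72 to 35.6 CPM in high polysomes (log2 4.94, adjusted p = 1.17e-09). Sall3 (2.28, adjusted p = 1.91e-12) and Sall1 (1.56, adjusted p = 1.68e-13) rose beside a Sall2 change that was not called, and Tcf7l2, a relative of Lef1, rose (1.64, adjusted p = 8.57e-12) whereas Tcf7 fell (-1.12, adjusted p = 7.88e-08). Without KO gradient 3 the Tcf7 change was -0.99 (adjusted p = 2.15e-05), just under the fold threshold. Pou3f3, a relative of Pou3f1, fell (-1.95, adjusted p = 0.00329), as did Tbx21, a relative of Eomes (-2.59, adjusted p = 3.57e-05). Pim3 (-1.84, adjusted p = 1.04e-16) and Pim1 (-1.19, adjusted p = 3.61e-10) fell as well. In monosomes 4 rose and 1 fell, and in low polysomes 5 rose and 2 fell. Zic5 is also among the other formative genes above. Of the genes named from these lists, Foxd1 and Cdh2 passed the filter on low values only through the KO libraries, and Pou3f3 and Tbx21 only through the WT libraries.

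**Figure D5:**
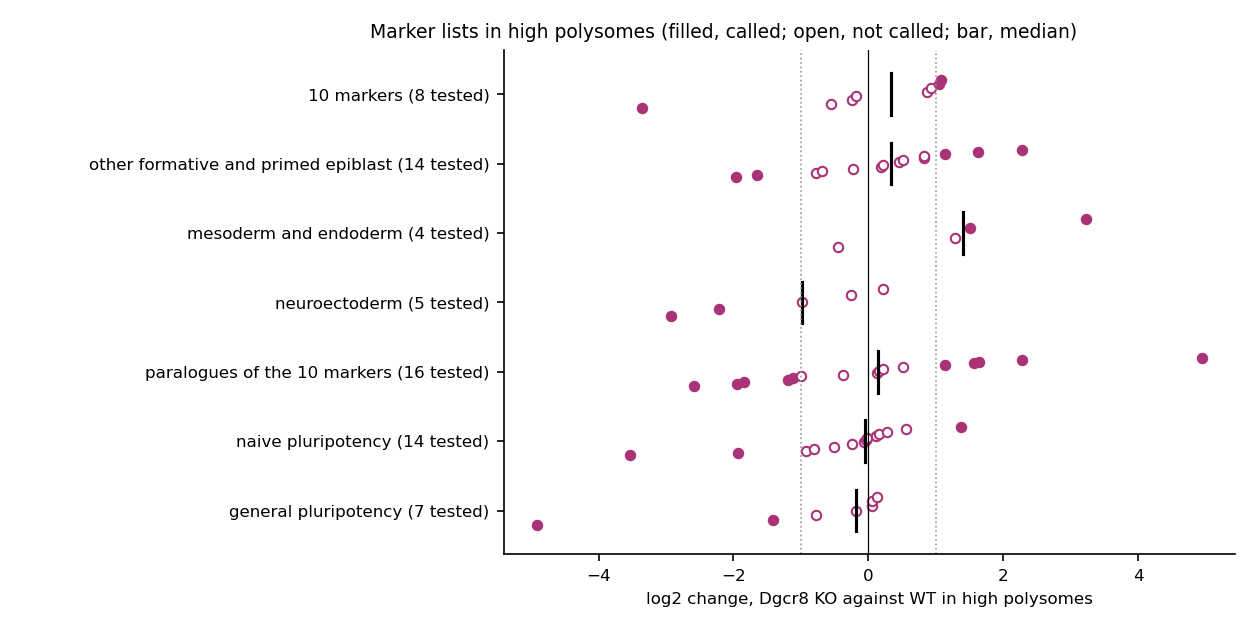
Log2 change of Dgcr8 KO against WT in high polysomes for each tested gene of the 10 markers and of 6 further lists, with filled points for called genes, a bar for the median of the list and dotted lines at 1 and -1. The medians are 0.34 for the 10 markers, 0.34 for other formative and primed genes, -0.99 for neuroectoderm and 0.14 for paralogues. The mesoderm and endoderm bar stands on 4 genes, of which Evx1, Kdr and Wnt3 passed the filter only through KO libraries.

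Markers of other cell types that a culture of ESCs could hold were read beside these results. Of 7 fibroblast genes 2 were tested, and Col1a1, the main collagen of feeder cells, fell in KO monosomes, low polysomes and high polysomes (log2 -2.78, -2.22 and -1.59, adjusted p = 0.00649, 0.00229 and 0.0261) from WT means of 3.26 to 4.33 CPM. The fibroblast list summed to 7.01 to 12.7 CPM in WT libraries and 2.33 to 22.1 CPM in KO libraries, the highest in the KO low polysome library of gradient 1, where Col3a1 was at 8.61 CPM, and Dcn was at 0 in all groups but KO low polysomes. Of 8 primitive endoderm genes 3 were tested, with sums of 8.13 to 34.3 CPM in WT and 5.48 to 22.8 CPM in KO libraries, and of these Dab2 and Col4a1 fell in low polysomes (log2 -1.93 and -1.02), Col4a1 in monosomes (-1.48) and Dab2 in high polysomes (-2.71), where Pdgfra rose (1.26). Of 7 trophectoderm genes 4 were tested, with sums of 112 to 194 CPM in WT and 110 to 178 CPM in KO libraries, mostly from Tfap2c, and Krt18 fell in monosomes (-2.04) and Krt8 rose in high polysomes (1.22), while Cdx2 gave 34 reads and Elf5 2 reads in all. Col1a1 and Dab2 passed the filter on low values only through the WT libraries, and Pdgfra and Krt8 only through the KO libraries. The directions of these genes are therefore no support for a change of their lists. The calls of Col1a1 in low and high polysomes, of Dab2 and Col4a1 in low polysomes, of Col4a1 in monosomes, and of Pdgfra and Krt8 in high polysomes were each lost without some single gradients. The part of such cells in the changes of Pou3f1, Lef1, Foxd3 and Zic2 was not tested. The labels name no batch, so no within-batch value can be given.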

How the data were processed

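Polysome fractions of WT and Dgcr8 KO ESCs were sequenced with QuantSeq 3′ FWD, 18 libraries in 6 groups of 3 by genotype and fraction, grouped by the labels. The deposited table holds unnormalised read counts for each gene. Per the labels and the study's methods, the authors trimmed reads with cutadapt 1.14, aligned them to mm10 with STAR 2.5.3a, kept those with a single locus, and counted them by strand over GENCODE M14 basic exons with featureCounts 1.5.3. Reads that fall past the annotated 3′ end are not counted, and no molecular identifiers were used. The deposited file also gives a start, end and exonic length for each gene, an annotation of other kind that was used for coordinates only. It holds 51467 genes, and 92 spike-in entries (0.000522 to 0.00215% of reads) were left out. All sample columns were used.

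Symbols, coding lengths and 3′ UTRs came from GENCODE M21 on the same build (51274 genes matched). The 12851 genes that reached 3 CPM in 3 or more libraries were fitted with limma-voom (limma 3.58.1, edgeR 4.0.16 for TMM, R 4.3.3), with 1 mean per group and no block. P-values are two-sided and were adjusted by Benjamini-Hochberg over those genes. Changes of ratios are interaction terms. The linear model, interaction and filter follow the study, and the call thresholds are those it used elsewhere. Per-gradient ratios use a prior count of 2. The fits were tested on simulated counts.

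The labels tie the 3 fractions with the same number in a genotype to 1 gradient, and their deviations from group means correlated at 0.032 to 0.135 (18 pairs), against -0.14 to 0.076 for different numbers. No label or method states whether equal numbers of the genotypes were handled together. In the same fraction their deviations correlated at 0 to 0.102 (9 pairs), against -0.099 to 0.055 for different numbers (18 pairs). Whether they shared handling was not tested. Replicates differed by more than counting noise (chi-square per gene 1.92 to 7.48).

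The 10 genes and all lists were chosen with earlier results of these data known. All 10 genes are named in every comparison, with the 2 nearest profiles for each gene tested, up to 4 called genes with the largest changes per further list (more where few were called), and defining markers near 0. A called list gene that is counted but not named is not reported here. The lists cover naive and general pluripotency, other formative genes, mesoderm and endoderm, neuroectoderm, paralogues, primitive endoderm, trophectoderm and fibroblasts. Alternatives were edgeR, DESeq2 1.42.0, DESeq2 size factors, total counts, no filter, 10 CPM, no fold threshold, only the libraries compared, both blocks, and each gradient left out.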

Additional observations from a re-analysis of the deposited data

Results flagged for a closer look

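Foxd3 and Utf1 differed between genotypes in how they were spread over the fractions, by the interaction of genotype and fraction in limma-voom, although neither passed the fold threshold. The low polysome to monosome ratio was higher in KO cells by a log2 value of 0.90 for Foxd3 (adjusted p = 0.00693) and 0.65 for Utf1 (adjusted p = 0.0175), with 3 of 3 KO gradients above all WT gradients in both genes. Gradients did not overlap for 30.4% of all genes in this ratio. With a gradient left out, the Utf1 adjusted p stayed under 0.05 only without KO gradient 3. The Foxd3 adjusted p was 0.0585, 0.0514 and 0.0513 without WT gradient 1, WT gradient 3 and KO gradient 2. The high to low polysome ratio of Utf1 was lower in KO cells, with a change of -0.65 (adjusted p = 0.00785) and 3 of 3 KO gradients below all WT gradients. Gradients did not overlap for 34.4% of all genes in that ratio, and the Utf1 adjusted p became 0.0563 without WT gradient 2. The 2 Utf1 changes share the low polysome libraries, and the high polysome to monosome ratio of Utf1 changed by 0.00.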

How the results depend on the processing

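The number of the 10 genes called kept within 1.5 times its value except as follows. With no fold threshold it was 4 against 2 in monosomes, 5 against 3 in high polysomes, 2 against 0 for the low polysome to monosome ratio, 1 against 0 for the high to low polysome ratio, 4 against 0 for WT high polysomes against monosomes and 3 against 1 for the same in KO cells. With total counts it was 1 against 3 in high polysomes, 1 against 0 for the high to low polysome ratio and 2 against 0 for WT high polysomes against monosomes. That WT comparison also gave 2 with edgeR, 2 with no filter, 1 with DESeq2 and 0 to 1 with a gradient left out, and the low polysome to monosome change gave 0 to 1 with a gradient left out. Over all genes, calls in high polysomes were 1946 higher and 2303 lower, and 1426 and 3114 with total counts. For the change of the high polysome to monosome ratio they were 808 and 1132, and 282 and 2070.

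With the gradient as a replicate block no call changed in the 5 comparisons between fractions. Within a fraction each gradient has 1 library, so no such block could be fitted there. A block on the replicate number over both genotypes, which the labels do not name as a pairing, gave 1 against 0 for WT high polysomes against monosomes (Pou3f1, 1.01). It changed no other call.

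Signs turned only for changes that were not called, with main log2 values from -0.30 to 0.21. The high polysome to monosome change of Utf1, at 0.00, ranged from -0.33 to 0.17 over the settings. Otx2 was at -0.01 in monosomes with 10 CPM and -0.03 for the low polysome to monosome change with total counts. In KO high polysomes against monosomes, total counts gave -0.04 for Sall2, -0.22 for Eomes and -0.06 for Lef1, and edgeR and DESeq2 gave -0.05 for Eomes. With a gradient left out, Otx2 ranged from -0.17 to 0.18 in monosomes, -0.01 to 0.30 in low polysomes, -0.45 to 0.01 in high polysomes and -0.12 to 0.19 for the low polysome to monosome change, and Utf1 from -0.35 to 0.03 in monosomes. Zic2 ranged from -0.26 to 0.25 for the high polysome to monosome change, -0.50 to 0.11 for the high to low change and -0.49 to 0.03 between KO fractions, Sall2 from -0.40 to 0.14 for the low polysome to monosome change and -0.05 to 0.38 between KO fractions, and Eomes from -0.38 to 0.24 there. The cause was not tested.

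Depth limits Lef1 in WT monosomes, Pou3f1 in KO cells, Eomes everywhere and Fgf5, with 2 reads, entirely, while the level of Pim2 is uncertain because its counted exons end early. Reads past the counted ends of Otx2, Zic2 and Pim2 are missing in both genotypes. Eomes could not be fitted at 10 CPM.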

Other observations

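Among the pluripotency genes read beside the markers, 3 of 14 naive genes were called in each fraction, and of 7 general genes 1, 1 and 2 were, where 18.1, 25 and 33.1% of all genes tested were called. All 14 naive genes and all 7 general pluripotency genes were tested, Utf1 standing in both this list and among the 10 markers. Klf2, a naive factor, rose in monosomes, low polysomes and high polysomes, although not called in monosomes without WT gradient 2 (0.99), with mean levels of 346, 302 and 698 CPM in WT and 723, 905 and 1810 CPM in KO cells. Dppa3, a maternal factor of germ cells and naive ESCs, fell in all 3 fractions by log2 values of -2.04, -2.70 and -3.54, and Tcl1, a cofactor of AKT, by -1.07, -1.47 and -1.94. Lin28a, an RNA-binding protein that blocks let-7 maturation, fell most, by -3.99, -4.02 and -4.91, from means of 42.1 to 52.5 CPM in WT to 1.51 to 5.87 CPM in KO cells. The highest of these, in low polysomes (SD 7.69, n = 3), came from gradient 1, without which the low polysome change was -5.05. Lin28a passed the filter on low values only through the WT libraries. Pou5f1, the core factor OCT4, fell in high polysomes (-1.42, adjusted p = 5.73e-09), with log2 values of 0.36 and -0.41 in the other fractions that were not called. Median log2 changes of the naive list were -0.31, 0.02 and -0.05, and of the general list 0.00, 0.23 and -0.19, beside -0.05, 0.00 and -0.08 over all genes.

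The naive list summed to 3590 to 5210 CPM in WT and 3920 to 5660 CPM in KO libraries. Of the ratio changes, Dppa3 and Pou5f1 were called lower for the high polysome to monosome ratio, Pou5f1 also for the high to low polysome ratio, and Nr0b1 higher for the low polysome to monosome ratio. The high to low call of Pou5f1 was lost without WT gradient 1 (-0.92), WT gradient 2 (-0.78) or KO gradient 3 (-0.81). The Nr0b1 call was lost without WT gradient 2 (adjusted p = 0.126), WT gradient 3 (adjusted p = 0.0997) or KO gradient 3 (adjusted p = 0.0935).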
